A study of Mus musculus with 6 samples.

Results

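The renin-angiotensin system genes described here are Ace, Agt, Agtr1a, Agtr2, Mme and Enpep. They were taken as all probe sets whose platform annotation names only one of these 6 symbols, which gave 8 of the 45101 probe sets measured, with 2 probe sets each for Ace and Mme and 1 for each of the other genes. RNA was measured on Affymetrix arrays in lungs of wild type mice, with 3 mice fed a high fat diet and 3 fed a control diet and 1 array for each mouse. The labels give no fat content or length of feeding and no strain, age or sex. The comparison asks whether the level of a lung transcript differs with diet.

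Angiotensinogen, the product of Agt, is a secreted precursor made mainly by the liver and also by adipose tissue. Renin cuts it to angiotensin I, which angiotensin-converting enzyme (Ace) turns into the vasoconstrictor angiotensin II. Ace sits on the surface of endothelial cells, and the capillary bed of the lung is a classical site of this conversion. Aminopeptidase A, encoded by Enpep, shortens angiotensin II to angiotensin III. Neprilysin, encoded by Mme, is a membrane zinc peptidase that cleaves angiotensin I to a shorter vasodilator peptide and also degrades natriuretic peptides, substance P and bradykinin. Agtr1a encodes the main AT1 receptor of the mouse, through which angiotensin II constricts vessels, and Agtr2 encodes the AT2 receptor, which is known mostly from fetal tissues.

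By probe set, the largest differences between the diets among the tested members were on 1 probe set of Mme and both of Ace. The brighter probe set of Mme was at a log2 difference of 0.13. For both Ace and Mme, RefSeq (build GRCm38.p6) lists more than 1 transcription start. The sequences from 250 bases before to 50 bases after a start are shown for these 2 genes because each has a pair of probe sets, and the signals do not tell from which start the RNA came. Capitals mark the letters of 4 well-known promoter motifs, each searched on either strand. The TATA box, which positions the transcription machinery, was searched with the letters TATAAA. The CCAAT box, which is bound by nuclear factor Y, was searched with the letters of its name. The GC box, which is bound by Sp1 and its relatives, was searched with the letters GGGCGG. The site of the stress-responsive factor AP-1 was searched with the letters TGAGTCA. The capitals that overlap are 2 GC boxes at the upstream Ace start. The upstream start of Ace (chr11:105967698-105967997, plus strand) is known as that of the long somatic enzyme, and the start inside the gene (chr11:105974939-105975238, plus strand) lies where the start of the testis form is known. Of the starts of Mme, the first (chr3:63294961-63295260, plus strand) and the second (chr3:63295622-63295921, plus strand) are shown.
Ace upstream start: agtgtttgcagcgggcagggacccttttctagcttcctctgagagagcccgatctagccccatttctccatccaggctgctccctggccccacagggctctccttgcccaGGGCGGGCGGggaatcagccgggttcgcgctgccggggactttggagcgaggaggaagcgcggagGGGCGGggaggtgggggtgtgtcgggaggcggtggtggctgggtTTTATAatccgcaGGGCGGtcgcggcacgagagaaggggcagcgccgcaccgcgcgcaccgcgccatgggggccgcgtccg
Ace internal start: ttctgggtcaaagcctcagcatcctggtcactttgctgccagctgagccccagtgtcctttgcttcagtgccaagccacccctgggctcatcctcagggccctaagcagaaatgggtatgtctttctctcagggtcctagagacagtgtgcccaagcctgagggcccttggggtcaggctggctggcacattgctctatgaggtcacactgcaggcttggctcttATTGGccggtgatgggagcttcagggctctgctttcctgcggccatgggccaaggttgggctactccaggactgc
Mme first start: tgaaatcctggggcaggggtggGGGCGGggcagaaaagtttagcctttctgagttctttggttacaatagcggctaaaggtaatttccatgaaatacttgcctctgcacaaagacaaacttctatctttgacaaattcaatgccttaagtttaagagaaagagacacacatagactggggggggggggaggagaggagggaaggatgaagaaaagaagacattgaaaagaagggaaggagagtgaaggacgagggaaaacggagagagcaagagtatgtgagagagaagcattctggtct
Mme second start: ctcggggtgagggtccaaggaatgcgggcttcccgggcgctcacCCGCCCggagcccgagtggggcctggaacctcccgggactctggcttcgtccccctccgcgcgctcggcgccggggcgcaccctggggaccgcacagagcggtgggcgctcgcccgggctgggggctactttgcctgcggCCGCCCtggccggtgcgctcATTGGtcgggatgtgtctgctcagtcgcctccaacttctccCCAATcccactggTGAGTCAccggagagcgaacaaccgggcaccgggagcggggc
The GC content of these windows was 69.7% and 59% for the upstream and internal Ace starts and 46% and 73% for the first and second Mme starts, against a median of 52.7% over 32851 RefSeq promoters of mouse. The upstream Ace window holds the TATA box and GC box letters, and the internal one holds those of a CCAAT box. The first Mme window holds the GC box letters alone of these motifs, and the second holds those of the CCAAT box, the GC box and the AP-1 site. Over all promoters the letters of the TATA box occur in 13.62%, of the CCAAT box in 37.41%, of the GC box in 35.66% and of the AP-1 site in 5.2%, and a match only describes its window. Of the 6 members, 5 had a promoter in this table.

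Signals are MAS5 intensities on a linear scale, scaled by the authors to a trimmed mean of 500 per array. Median signals over the whole array were 113.4 to 128.7 for high fat lungs and 143.3 to 150.3 for control lungs. Differences were tested with limma on log2 signals for the 27022 probe sets whose mean log2 signal reached the 40th percentile, a signal of 70.3, and a call is a Benjamini-Hochberg adjusted p under 0.05. The lung-defining transcripts Sftpc, Scgb1a1, Ager and Cdh5 had signals of 3177 or more on every array. Control probe sets for Gapdh at its 3' and 5' ends, whose ratio is a measure of RNA integrity, gave a 3' over 5' ratio of 0.915 ± 0.054 in high fat lungs and 0.768 ± 0.026 in control lungs (SD, n = 3 each), without overlap between the diets. The same ratio for b-Actin was 1.52 ± 0.02 in high fat lungs and 1.31 ± 0.12 in control lungs (SD, n = 3 each). These groups did not overlap either. The part of RNA integrity in the results was not tested. The precision is limited by the 3 arrays per diet.

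Of the 8 member probe sets, 6 passed the signal filter, for Ace, Agtr1a, Mme and Enpep, and those of Agt and Agtr2 did not. Among the 6, limma called 1 probe set, for Mme, which was lower in high fat lungs. That is 16.7% of the tested members, beside 12.9% of all tested probe sets called in either direction and 8.27% called lower, so the share lies near the background. With each gene represented by its brightest probe set, limma called 0 of 4 member genes, beside 6.75% of 12689 genes. Of these 4 genes 1 (Ace) had an unadjusted p under 0.05, as did 25.5% of all genes. The median log2 difference of the 6 tested member probe sets, high fat minus control, was -0.35, with 4 below and 2 above 0. That of all tested probe sets was -0.06. Ace and Mme enter the 6 with 2 probe sets each. By gene, the log2 differences were -0.40 for Ace, -0.30 for Agtr1a, 0.07 for Enpep and 0.13 for Mme. The groups did not overlap for 2 of the 6 probe sets (33.3%), and for 36.2% of all tested ones.

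**Figure D1:**
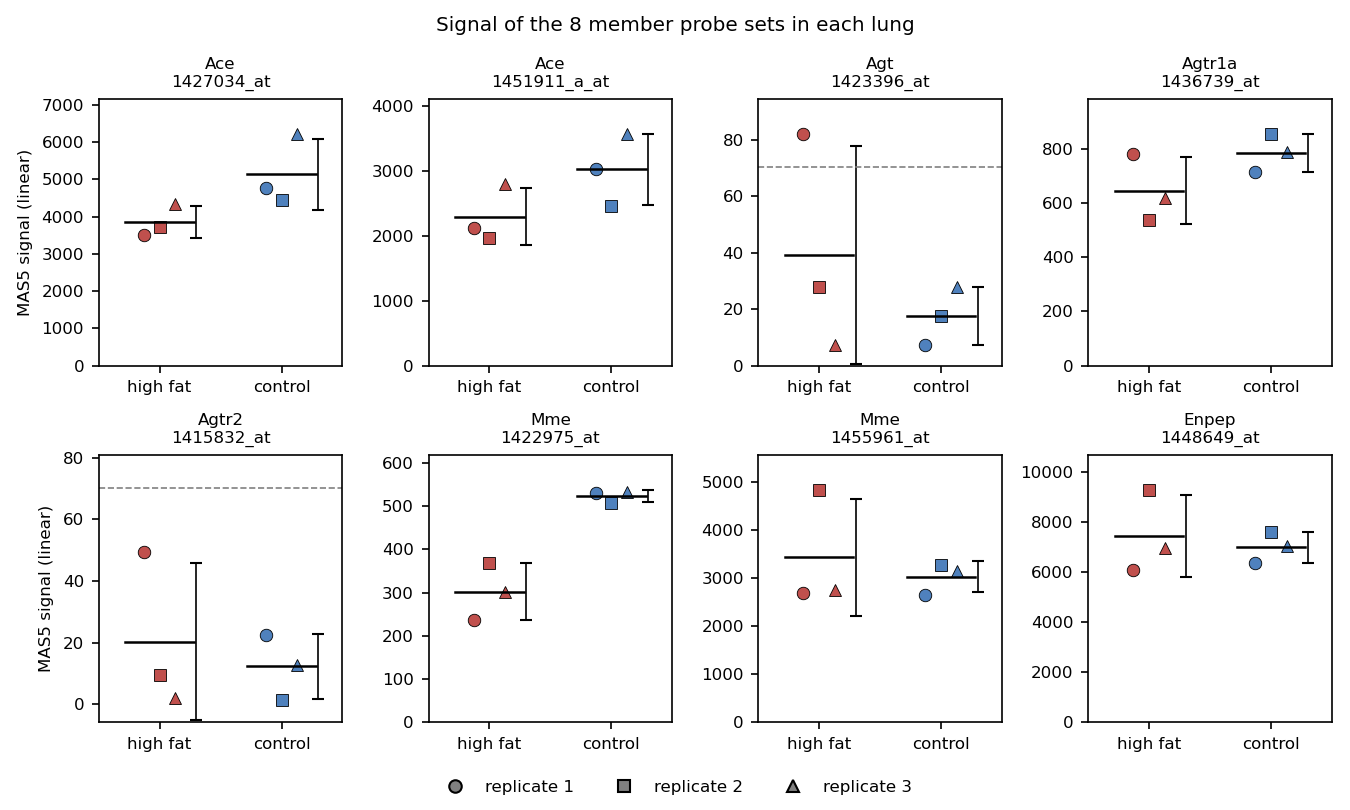
MAS5 signal (linear scale) of each of the 8 member probe sets in the 3 high fat lungs (left, red) and the 3 control lungs (right, blue), with the mean as a line and the SD as a bar. Marker shapes give the replicate number, and the dashed line in the Agt and Agtr2 panels is the signal filter of 70.3. The groups separate for Ace probe set 1427034_at and Mme probe set 1422975_at and overlap for the other 6.

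The precursor gene Agt was dim in these lungs. Its probe set 1423396_at had signals of 82.1, 27.9 and 7.27 in high fat lungs, against 7.32, 17.5 and 27.7 in control lungs. High fat replicate 1 was the only mouse above the filter signal, and the groups overlapped. Without the filter, the log2 difference of Agt was 0.74 with a 95% confidence interval from -1.52 to 3.01 (limma adjusted p = 0.742 over genes), so neither a lower nor a higher level could be told at these signals. Adipocyte markers, from a known source of Agt, were higher in high fat lungs: of 8 tested, 7 were called higher and 0 lower, beside 4.56% of all genes called higher. Their mean log2 signal relative to the control mean was 2.73, 2.13 and 2.19 in high fat lungs and -0.58, -0.08 and 0.67 in control lungs, and their part in the Agt signal was not tested.

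Ace had lower mean signals in high fat lungs on both of its probe sets, by about the same ratio, but neither difference passed the test. Probe set 1427034_at had signals of 3514, 3727 and 4346 in high fat lungs, against 4758, 4437 and 6224 in control lungs. Every high fat lung lay below every control lung, and the nearest mice were high fat replicate 3 and control replicate 2. Means were 3863 ± 432 in high fat lungs and 5139 ± 953 in control lungs (SD, n = 3 each), 0.757-fold with a 95% confidence interval from 0.595-fold to 0.962-fold (limma adjusted p = 0.143 over genes and 0.114 over probe sets). The other probe set, 1451911_a_at, had signals of 2124, 1972 and 2795 in high fat lungs, against 3032, 2468 and 3570 in control lungs. High fat replicate 3 lay above control replicate 2, so the groups overlapped here. Its log2 difference was -0.40 with a 95% confidence interval from -0.79 to 0.001 (limma adjusted p = 0.162 over probe sets). In bulk tissue, fewer cells of a type and less RNA per cell cannot be told apart. The size of the Ace difference depended on the scaling. With quantile normalization, Ace was at a log2 difference of -0.49 (limma adjusted p = 0.0817 over genes). With arrays centred on their median, the median log2 difference of all tested probe sets was 0.22 in place of -0.06, and Ace was at -0.13 (limma adjusted p = 0.579 over genes).

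Endothelial markers, from the cells that are known to carry Ace in lung, had mostly small negative differences. Of 18 tested, limma called 2 lower and 0 higher, beside 2.2% of all genes called lower, and 13 of the 18 differences were below 0 (median log2 difference -0.24). Those called were Pecam1, a junctional adhesion molecule, and Emcn, a sialomucin of capillaries and veins. The count called was 0 without control replicate 2 or 3 and with eBayes without trend, and 1 without any 1 of the high fat mice. It was 3 lower with quantile normalization and with the mean of all probe sets. With the probe set of largest interquartile range it was 6 lower, at a median of -0.45, beside 2062 of all 12689 genes called in either direction. With arrays centred on their median it was 1 lower and 1 higher, at a median of 0.03. The mean log2 signal of the 18 relative to the control mean was -0.41, -0.25 and -0.003 in high fat lungs and -0.15, 0.05 and 0.10 in control lungs, so the groups overlapped. The dimmest of these markers, the receptor Robo4, had signals of 548 or more on every array. The part of endothelial content in the Ace values was not tested.

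The 2 probe sets of Mme gave different results. Probe set 1422975_at had signals of 235, 369 and 301 in high fat lungs, against 531, 507 and 532 in control lungs. The control lungs lay close together, and all 3 high fat lungs lay below them. On this probe set the mean fell to 302 ± 66.7 in high fat lungs, against 523 ± 14.4 in control lungs (SD, n = 3 each), 0.567-fold with a 95% confidence interval from 0.42-fold to 0.766-fold (limma adjusted p = 0.0281 over probe sets). The call was lost without control replicate 1, 2 or 3 or high fat replicate 1 (limma adjusted p 0.0543 to 0.097) and held without high fat replicate 2 or 3 (0.0302 and 0.0492). It was also lost with arrays centred on their median (log2 difference -0.54, adjusted p = 0.0914) and without replicate 1 of both diets (-0.64, adjusted p = 0.116).

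The brighter probe set of Mme, 1455961_at, which represents the gene, had signals of 2695, 4834 and 2751 in high fat lungs, against 2655, 3265 and 3153 in control lungs. High fat replicate 2 stood above all other mice, and the other 2 high fat lungs lay within the range of the control lungs. The log2 difference was 0.13 with a 95% confidence interval from -0.36 to 0.63 (limma adjusted p = 0.749 over genes), and it turned to -0.15 without high fat replicate 2. With arrays centred on their median it was 0.40 (limma adjusted p = 0.237 over genes). Within an array, the log2 signal of 1422975_at minus that of 1455961_at was -3.52, -3.71 and -3.19 in high fat lungs, against -2.32, -2.69 and -2.57 in control lungs. This within-array measure, looked at after the values were seen, does not depend on the scaling of the arrays. It was -3.47 ± 0.26 in high fat lungs and -2.53 ± 0.19 in control lungs (SD, n = 3 each), without overlap, a difference of -0.95 with a two-sided exact permutation p = 0.1. With 3 mice against 3 no smaller p can be reached. Since the differences of the 2 probe sets were of opposite sign, no direction is given for Mme as a gene. The same measure for Ace, 1427034_at minus 1451911_a_at, was 0.76 ± 0.14 in high fat lungs and 0.77 ± 0.10 in control lungs (SD, n = 3 each; exact permutation p = 0.9).

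**Figure D2:**
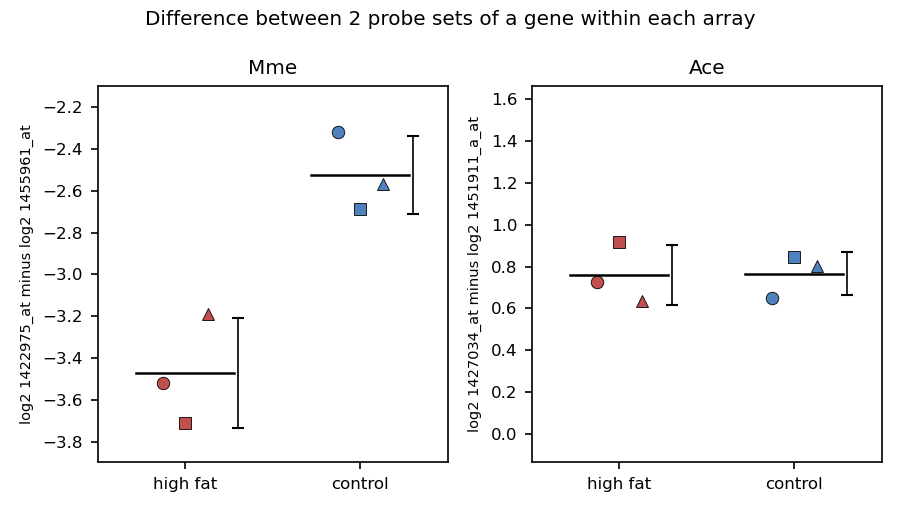
Difference in log2 signal between the 2 probe sets of Mme (left) and of Ace (right) within each array, for 3 high fat lungs (red) and 3 control lungs (blue), with the mean as a line and the SD as a bar. The Mme values lie between -3.71 and -3.19 in high fat lungs, all below the control lungs, and the Ace values overlap.

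In humans, neprilysin is the antigen CD10 of B cell precursors and of neutrophils. Which cells of these mouse lungs held Mme RNA was not measured. Some B lineage and neutrophil markers were called lower in high fat lungs. Of 9 tested B lineage markers limma called 4 lower and 0 higher, and of 7 tested neutrophil markers 2 lower and 0 higher, beside 2.2% of all genes called lower. Those called were Ms4a1, Cd22, Fcmr and Fcer2a of the B lineage list and S100a9 and Mmp8 of the neutrophil list. The B lineage list is not one of precursor markers. The B lineage count was 0 without control replicate 1, 2 or 3 and 2 without high fat replicate 2. The neutrophil count was 0 without control replicate 2 or high fat replicate 2, and 1 without control replicate 3 or high fat replicate 1. With eBayes without trend both counts were 0. B lineage scores, as mean log2 signal relative to the control mean, were -0.79, -1.53 and -0.41 in high fat lungs and -0.20, 0.31 and -0.12 in control lungs. Neutrophil scores were -1.17, -1.63 and -1.10 in high fat lungs and -0.57, -0.18 and 0.75 in control lungs. Neither score overlapped between the diets, as was so for Mme probe set 1422975_at. The brighter Mme probe set, 1455961_at, overlapped. Within the high fat lungs both scores were lowest in replicate 2, and Mme probe set 1422975_at was lowest in replicate 1 and highest in replicate 2. Camp and Cxcr2, other neutrophil markers, did not pass the filter, and the part of these cells in the Mme signals was not tested.

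Enpep, the aminopeptidase A gene, did not pass the test. Its probe set 1448649_at had signals of 6077, 9297 and 6990 in high fat lungs, against 6350, 7614 and 7031 in control lungs. As for the brighter Mme probe set, high fat replicate 2 was the highest of all mice, and the groups overlapped. The log2 difference was 0.07 with a 95% confidence interval from -0.30 to 0.45 (limma adjusted p = 0.821 over genes), or 0.811-fold to 1.36-fold. Median centring of the arrays put it at 0.35 (limma adjusted p = 0.196 over genes). Fibroblast scores, as mean log2 signal of 9 markers relative to the control mean, were 0.26, 0.32 and 0.15 in high fat lungs and 0.18, -0.06 and -0.13 in control lungs, so the groups overlapped. Of these 9 markers limma called 1 higher, the collagen gene Col1a1, and 0 lower, beside 4.56% of all genes called higher. The count was 0 without control replicate 2 or 3 or any 1 of the high fat mice. With median centring it was 4, beside 3208 of all 12689 genes called, 95.45% of them higher. Mesothelial scores were highest in high fat replicate 2, at 0.55, 1.28 and 0.56 in high fat lungs and -0.08, 0.10 and -0.02 in control lungs. The part of these cells in the Enpep and Mme values was not tested.

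The receptor gene Agtr1a had signals of 782, 538 and 620 in high fat lungs, against 715, 854 and 790 in control lungs on probe set 1436739_at. High fat replicates 2 and 3 lay below all control lungs, and high fat replicate 1 lay among them. Means were 646 ± 124 in high fat lungs and 787 ± 69.8 in control lungs (SD, n = 3 each), 0.814-fold with a 95% confidence interval from 0.627-fold to 1.06-fold (limma adjusted p = 0.298 over genes). With arrays centred on their median the log2 difference was -0.02 in place of -0.30, and with quantile normalization it was -0.27. AT1 receptors are known from pericytes and vascular smooth muscle, some of whose markers were called in the other direction. Of 12 tested smooth muscle and pericyte markers limma called 4 higher and 0 lower, beside 4.56% of all genes called higher. Those called were Cnn1, Tagln, Myl9 and Notch3. Differences were above 0 for 10 of the 12, among them Rgs5, Pdgfrb and Cspg4, which were not called. The 2 below 0 were Kcnj8 and Higd1b, at -0.15 and -0.11 on the log2 scale. The count called was 0 without control replicate 2 or 3 or high fat replicate 3 and with eBayes without trend, 1 without control replicate 1 and 2 without high fat replicate 1. It was 9 with arrays centred on their median, beside 3208 of all 12689 genes called, 95.45% of them higher. The scores of the 12 markers were 1.09, 0.47 and 0.67 in high fat lungs and 0.14, -0.15 and 0.01 in control lungs. The part of these cells in the Agtr1a values was not tested.

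The other receptor gene, Agtr2, was at the low end of the array. Probe set 1415832_at had signals of 49.6, 9.62 and 1.96 in high fat lungs, against 22.5, 1.48 and 12.9 in control lungs. All 6 values lay below the filter signal of 70.3 and overlapped. Without the filter the log2 difference was 0.37 with a 95% confidence interval from -2.78 to 3.53 (limma adjusted p = 0.918 over genes). A difference in Agtr2 was therefore not detectable at these signals. High fat replicate 1, the highest lung for both Agt and Agtr2, also had the highest cardiac muscle score, at 2.57 against 0.16 and 0.95 in the other high fat lungs and -0.12, -0.52 and 0.64 in control lungs. Skeletal muscle scores also differed between lungs, at 1.7, -2.3 and -3.1 in high fat lungs and 3.5, -3.0 and -0.5 in control lungs. The part of heart or skeletal muscle tissue in these dim signals was not tested.

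**Figure D3:**
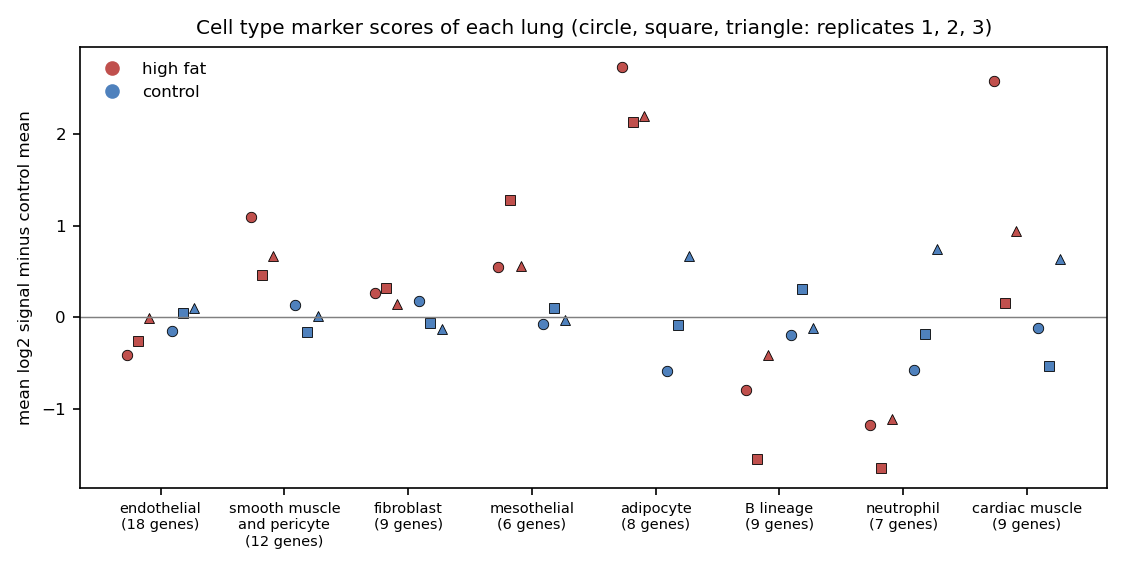
Mean log2 signal of the tested markers of 8 cell types in each lung, relative to the mean of the control lungs, with high fat lungs in red and control lungs in blue. Adipocyte, mesothelial and smooth muscle scores are higher in all 3 high fat lungs and B lineage and neutrophil scores lower, while endothelial, fibroblast and cardiac muscle scores overlap between the diets.

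Among 20 other genes of angiotensin formation, breakdown and binding, 10 were tested, and limma called 1 higher and 0 lower in high fat lungs, beside 6.75% of all genes called in either direction and 4.56% called higher. Their median log2 difference was 0.06, the same as that of all tested genes, 0.06. The gene called was Anpep, the aminopeptidase N that trims angiotensin III. Its signals were 415, 310 and 316 in high fat lungs, against 154, 145 and 217 in control lungs. All high fat lungs lay above all control lungs, by 2.04-fold with a 95% confidence interval from 1.41-fold to 2.93-fold (limma adjusted p = 0.0364 over genes). The call was lost without each mouse in turn, control replicates 1, 2 and 3 and high fat replicates 1, 2 and 3 (adjusted p 0.0579 to 0.116), while the log2 difference stayed between 0.89 and 1.21.

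Peptidases next in order of p were Ctsa, Cpa3, Nln and Cma1, and none of these 4 was called. Ctsa, a lysosomal carboxypeptidase, averaged 2174 ± 167 in high fat lungs and 2568 ± 246 in control lungs (SD, n = 3 each; limma adjusted p = 0.249), without overlap. Neurolysin, encoded by Nln, averaged 462 ± 65 in high fat lungs and 394 ± 92.8 in control lungs (SD, n = 3 each; limma adjusted p = 0.49). The mast cell genes Cpa3, a carboxypeptidase, and Cma1, a chymase that can form angiotensin II, were dim, and Cpa3 had signals of 81.4, 98.2 and 12.4 in high fat lungs, against 96.0, 131 and 96.7 in control lungs. Cma1 had signals of 166, 139 and 84.9 in high fat lungs, against 128, 114 and 46.8 in control lungs. The AT1b receptor gene Agtr1b (46.1 to 78.2 in high fat lungs and 37.1 to 62.9 in control lungs) and the receptor gene Mas1 (3.36 to 11.3 in high fat lungs and 1.97 to 41.7 in control lungs) did not pass the filter. Renin genes and Lnpep had no probe set naming them alone and were not analysed here.

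**Figure D4:**
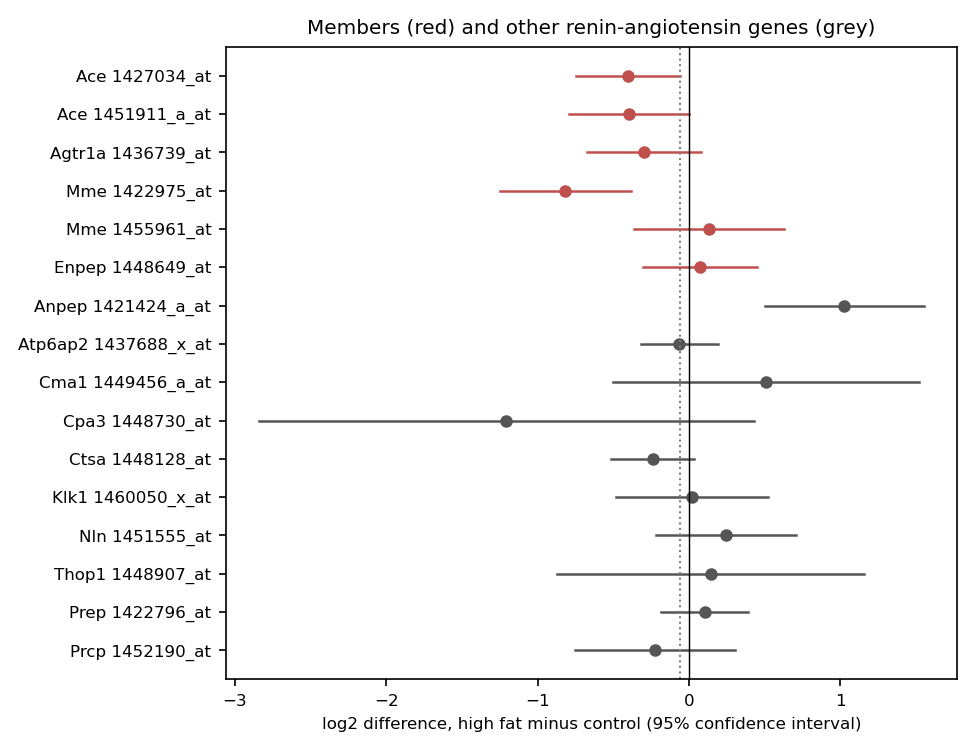
Log2 difference in signal, high fat minus control, with its 95% confidence interval, for the 6 tested member probe sets (red) and the representative probe sets of 10 other renin-angiotensin genes (grey). The solid line is 0 and the dotted line the median of all tested probe sets (-0.06), and the intervals of Ace 1427034_at, Mme 1422975_at and Anpep exclude 0.

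Kinins are broken down by Ace and neprilysin. Of 11 kinin genes, 9 were tested and limma called 0, beside 6.75% of all genes. Of the 9, 1 had an unadjusted p under 0.05, as did 25.5% of all genes. This kinin gene was Cpm, a membrane carboxypeptidase that trims bradykinin. Its signals were 3130, 4781 and 3789 in high fat lungs, against 2597, 2666 and 3118 in control lungs. These groups were separate by a small gap, and the difference was 1.38-fold (limma adjusted p = 0.121 over genes). The carboxypeptidase N gene Cpn1 was at 1.47-fold, the aminopeptidase P gene Xpnpep2 at 1.38-fold and the plasma kallikrein gene Klkb1 at 0.613-fold (limma adjusted p = 0.217, 0.309 and 0.337). Over the 19 tested probe sets of these genes, limma called 3 lower and 0 higher, beside 8.27% of all tested probe sets called lower. The 3 were not the brightest of their genes. They were 2 of Cpd, a carboxypeptidase, 1418019_at and 1418020_s_at (log2 differences -0.84 and -0.69, adjusted p = 0.0151 and 0.0142), and 1438279_at of Dpp4, a dipeptidyl peptidase (-1.36, adjusted p = 0.00697). The brightest probe sets of Cpd and Dpp4 were at -0.18 and -0.02. By gene, 1 was called higher with arrays centred on their median, beside 3208 of all 12689 genes called, 95.45% of them higher.

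Of 21 genes for signalling partners of the angiotensin receptors, 20 were tested and limma called 0, beside 6.75% of all genes. Of the 20, 5 had an unadjusted p under 0.05, as did 25.5% of all genes. Their median log2 difference was 0.14, beside 0.06 for all tested genes. The smallest p belonged to Prkca, the protein kinase C alpha gene, with signals of 1185, 1230 and 1253 in high fat lungs, against 871, 805 and 991 in control lungs. It was 1.38-fold without overlap (limma adjusted p = 0.0588 over genes and 0.0422 over probe sets). Its other 2 tested probe sets were at -0.04 and 0.20 on the log2 scale. Mtus1, which encodes a protein that binds the AT2 receptor, was at 1.29-fold on its brightest probe set (limma adjusted p = 0.0739), and its other probe sets were at 0.01 and -0.18 on the log2 scale. Gna11, a G protein alpha subunit that couples the AT1 receptor to phospholipase C, was at 0.711-fold (limma adjusted p = 0.0788), and its other probe set was at 0.05 on the log2 scale. Plcb3, a phospholipase C, was at 1.35-fold (limma adjusted p = 0.147). Over the 55 tested probe sets of these genes, limma called 5 lower, beside 8.27% of all tested probe sets, and 1 higher, that of Prkca. The 5 were not the brightest of their genes. Those of Cybb, a subunit of the phagocyte NADPH oxidase, were 1422978_at and 1436779_at (log2 differences -1.05 and -0.98, adjusted p = 0.007 and 0.0192). Those of Plcb1, a phospholipase C, were 1425600_a_at and 1425781_a_at (-1.83 and -1.49, adjusted p = 0.0224 and 0.0143), and that of the kinase gene Jak2 was 1421065_at (-0.68, adjusted p = 0.018). Their brightest probe sets were at -0.52 for Cybb, -0.25 for Plcb1 and -0.17 for Jak2. By gene, 8 of the 20 were called higher with arrays centred on their median. In that setting 3208 of all 12689 genes were called, 95.45% of them higher. With the probe set of largest interquartile range 2 were called higher and 3 lower, beside 2062 of all 12689 genes called in either direction.

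Of 13 genes for relatives of neprilysin, its peptide substrates and their receptors, 9 were tested. Beside 6.75% of all genes, limma called 0 of these 9. Their median log2 difference was 0.31, beside 0.06 for all tested genes. Of the 9, 1 had an unadjusted p under 0.05, as did 25.5% of all genes. This member of the list was Ece1, endothelin-converting enzyme, at 1.28-fold on its brightest probe set (limma adjusted p = 0.139 over genes). As for Mme, the differences of its probe sets were of opposite sign: another tested probe set of Ece1, 1441423_at, was called lower at a log2 difference of -0.87 (limma adjusted p = 0.036 over probe sets), and 1455741_a_at was at -0.09. The natriuretic peptide receptor genes Npr2 and Npr3 were at 1.27-fold each, and Ece2 at 0.76-fold (limma adjusted p = 0.206, 0.323 and 0.345). Another probe set of Npr3 was at -0.65 on the log2 scale. Median centring gave 2 of the 9 genes as called higher, beside 3208 of all 12689 genes called, 95.45% of them higher.

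Over the 4 lists, 48 genes were tested and 1 was called (2.08%), beside 6.75% of all genes, and the groups did not overlap for 31.2% of them, beside 31.8% of all genes.

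The genes whose log2 signals followed a member most closely over the 6 arrays were found by Pearson's r among 12218 genes. For Ace these were Tube1 (r = 0.994), a tubulin gene, and Sipa1 (r = 0.991), a GTPase activator. For Agtr1a they were Tmem248 (r = 0.997) and Plpp6 (r = 0.994), and for Enpep Cers6 (r = 0.992), a ceramide synthase, and Itga8 (r = 0.987), an integrin chain. For the brighter Mme probe set they were Zfp267 (r = 0.978) and Matr3 (r = 0.968), a nuclear matrix protein. With 6 arrays that share scaling and diet, 14 to 37 genes reached an r of 0.95 with each of these 4 members, so the order is a description only. None of these 8 genes was called.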

How the data were processed

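Members and lists of genes were chosen with earlier results of these data known. Per the labels' protocols, total RNA came from a Qiagen RNeasy extraction and was biotin-labelled for Affymetrix arrays. The authors summarised probe sets with MAS5, per the submitters' processing notes, with version and settings not given in the sources used here. Each deposited value is an intensity on a linear scale, and the mean without 2% of probe sets at each end was 500 on all 6 arrays. Mismatch signal is subtracted by MAS5, so that dim probe sets are noisy.

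Symbols came from the platform annotation (34958 probe sets with 1 symbol), and no coordinates of probe sets are given because the files name no build. Log2 was taken after raising values below 1 to 1. Probe sets were kept at a mean log2 signal at or above the 40th percentile, without 64 Affymetrix controls. limma 3.58.1 (R 4.3.3) was run (lmFit, then eBayes with trend; two-sided) with diet as the only term and 4 residual degrees of freedom, and was tested on simulated data. Benjamini-Hochberg adjustment was made over 27022 probe sets, or over 12689 genes represented by their brightest probe set. Named genes are all members, called genes of each list, up to 4 others by p, and 6 more renin-angiotensin genes whatever their values. Alternatives were other normalizations, offsets, filters, variance models, representatives, a block for replicate number, array weights, and leaving out mice. The labels hold no date of labelling or scanning, so no batch was tested, and a batch that follows diet cannot be told apart from it.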

Additional observations from a re-analysis of the deposited data

How the results depend on the processing

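The count of 0 called member genes held in 17 of 18 alternatives, and was 1 (Mme, log2 difference -0.82) with the probe set of largest interquartile range for each gene. The count of 1 called member probe set was 0 with arrays centred on their median and without replicate 1 of both diets, and 0 to 1 with 1 mouse left out. The count of 1 called other renin-angiotensin gene was 0 with eBayes without trend, with the replicate number as a block, without replicate 1 of both diets, and 0 in each of the 6 fits with 1 mouse left out. Deviations from the group means correlated at 0.17, 0.11 and -0.04 between mice with the same number, so the numbers were not taken as pairs, and the block changed no call of a member. Ace stayed between -0.50 and -0.13 and Agtr1a between -0.51 and -0.02 over 18 alternatives, with 0 calls each. Enpep was at -0.026 with quantile normalization, at 0.35 with arrays centred on their median, and ran from -0.10 to 0.21 with 1 mouse left out. Mme was at -0.34 for the mean over its probe sets, at -0.82 with the probe set of largest interquartile range and at 0.40 with median centring, and ran from -0.15 to 0.28 with 1 mouse left out. Mme probe set 1422975_at kept its direction in all 16 alternatives (-0.97 to -0.54) and was called in 10. Over all genes, 857 were called, and 136 (eBayes without trend) to 3208 (arrays centred on their median) under the alternatives, with 160 to 566 when 1 mouse was left out. It was 472 with the mean of all probe sets, 2062 with the largest interquartile range and 307 without replicate 1 of both diets. Over probe sets it was 3486, and 5448 with median centring, 1274 without replicate 1 of both diets and 721 to 3307 with 1 mouse left out. Of called genes 67.4% were higher, against 95.4% with median centring, 54.4% with the mean of all probe sets and 44.9% with the largest interquartile range. Called B lineage, neutrophil and smooth muscle markers numbered 1, 4 and 6 with the replicate number as a block, beside 737 of 12689 genes. With the mean of all probe sets they numbered 1 each, beside 472 of 12689 genes. The causes were not tested. Signals under the filter limit Agt, Agtr2, Agtr1b and Mas1.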
